A study of Mus musculus with 12 samples.

Results

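Transcripts of 6 genes of the transforming growth factor beta (TGF-beta) and interleukin-10 systems were followed in 12 mouse melanomas, of which 9 were injected with tumor-bound interleukin-2 and interleukin-12 and 3 with saline. The genes were the ligands Tgfb1, Tgfb2 and Il10 and the receptor chains Tgfbr1, Tgfbr2 and Il10ra. They were chosen by name from the 750 genes of an nCounter immune panel, on which bar-coded probes count single RNA molecules without amplification. All 6 were on the panel and all 6 were among the 729 genes tested. The tumors were B16F10, a melanoma line of C57BL/6 mice, grown in the right flank of C57BL/6 mice from Taconic, 1 tumor per mouse. The cytokines were fusion proteins that bind collagen, the fiber protein of connective tissue, and were injected into the tumor from day 6 of its growth. RNA came from fixed, paraffin-embedded tissue.

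Repeat-dose tumors (3) received 2 doses of the cytokines, given 6 days apart, and were taken 2 days after the second dose, on day 8. Late single-dose tumors (3) received 1 dose and were collected on day 8 after it. Early single-dose tumors (3) received 1 dose and were collected on day 2. Saline tumors (3) received saline and were collected on day 2. Saline tumors of day 8 were not analysed here, so for both day-8 groups the treatment and the age of the tumor cannot be told apart in any comparison with saline. The design text counts 4 repeat-dose mice in 1 sentence and 3 in another, and 3 were analysed here. B16F10 is a single transplanted cell line, and its flank tumors hold host leukocytes, vessels and matrix cells beside the tumor cells.

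TGF-beta is made as a latent protein that has to be released before it acts. The active ligand binds TGFBR2, which recruits and phosphorylates TGFBR1, and TGFBR1 passes the signal to the Smad2 and Smad3 proteins. It restrains T cells and natural killer cells, favors regulatory T cells and drives the deposition of matrix. Interleukin-10 is made by macrophages and several kinds of T cells, binds IL10RA together with a shared chain, IL10RB, and signals through Jak1, Tyk2 and Stat3 to damp inflammatory genes in macrophages.

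Every count was divided by the relative geometric mean of the 20 housekeeping probes of its tumor, and the result is called the scaled count. That mean was 919 ± 341 in repeat-dose, 1467 ± 221 in late single-dose, 1716 ± 410 in early single-dose and 2680 ± 363 in saline tumors (SD, n = 3 each), while total panel counts ran from 392596 to 1232726 with no such order. With this scaling the median gene was higher than in saline by 1.19 on the log2 scale in repeat-dose, 0.78 in late single-dose and 0.56 in early single-dose tumors. Each change below is therefore given on the housekeeping scale and, where it matters, relative to that median and under TMM scaling (trimmed mean of M-values), which sets the bulk of the genes at no change. Whether RNA quality or the amount of tumor tissue lowered the housekeeping counts was not tested. The level of one gene is not compared with that of another, since probes differ in how well they capture their target.

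The promoter windows of the genes are shown to set the start regions of the TGF-beta ligands and receptor chains side by side, as a description of their letters. RefSeq's windows on GRCm38.p6, 250 bases before to 50 bases after the annotated start, were on hand for 4 of the 6 genes. Tgfbr1 has a second annotated window (chr4:47385966-47386265, plus strand), which is not printed. They are printed 5′ to 3′ on the strand of the gene, with capitals for a match on either strand to the GC box GGGCGG, to which Sp1-type factors bind, or to the TATA box TATAAA.
Tgfb1 (chr7:25686752-25687051, plus strand): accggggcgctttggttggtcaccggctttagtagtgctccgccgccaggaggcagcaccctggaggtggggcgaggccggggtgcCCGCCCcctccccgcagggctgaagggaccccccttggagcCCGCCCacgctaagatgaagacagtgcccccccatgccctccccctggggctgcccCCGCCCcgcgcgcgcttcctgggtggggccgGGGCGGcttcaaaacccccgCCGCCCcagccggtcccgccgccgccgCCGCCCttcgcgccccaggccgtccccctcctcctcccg
Tgfb2 (chr1:186705940-186706239, minus strand): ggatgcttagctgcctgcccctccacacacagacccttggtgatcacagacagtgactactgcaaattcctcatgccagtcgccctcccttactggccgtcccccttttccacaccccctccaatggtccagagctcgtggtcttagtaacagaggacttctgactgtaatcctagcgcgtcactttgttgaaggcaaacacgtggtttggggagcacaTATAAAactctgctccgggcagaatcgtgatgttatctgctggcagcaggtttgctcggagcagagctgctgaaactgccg
Tgfbr1 (chr4:47352972-47353271, plus strand): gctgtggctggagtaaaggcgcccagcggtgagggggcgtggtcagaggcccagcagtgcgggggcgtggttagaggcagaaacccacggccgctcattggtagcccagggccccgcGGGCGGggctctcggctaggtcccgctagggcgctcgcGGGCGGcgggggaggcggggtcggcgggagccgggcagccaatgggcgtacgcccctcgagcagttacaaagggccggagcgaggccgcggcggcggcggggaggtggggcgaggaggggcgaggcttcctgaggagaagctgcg
Tgfbr2 (chr9:116175314-116175613, minus strand): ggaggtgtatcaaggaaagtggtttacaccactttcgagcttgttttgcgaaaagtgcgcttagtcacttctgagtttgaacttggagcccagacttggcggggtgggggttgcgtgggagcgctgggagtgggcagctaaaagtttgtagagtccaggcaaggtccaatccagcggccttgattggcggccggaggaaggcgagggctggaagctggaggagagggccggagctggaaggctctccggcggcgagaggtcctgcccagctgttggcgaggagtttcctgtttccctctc
The Tgfb1 window had a GC content of 77.0% and 6 GC boxes, and no TATA box. The Tgfb2 window had a GC content of 54.3%, a TATA box and no GC box. The first Tgfbr1 window had 74.7% GC and 2 GC boxes, its second window had 52.0% GC and neither motif, and the Tgfbr2 window had 59.0% GC and neither motif. Among all 32851 windows of the same length the median GC content was 52.7%, 35.7% held a GC box and 13.6% a TATA box. Searched in the same way on both strands, the AP-1 site TGANTCA (in 7.81% of all windows), the cyclic AMP element TGACGTCA (1.79%), the Smad box GTCTAGAC (0.213%) and the GAS element TTCNNNGAA (8.3%), to which Stat proteins bind, had no match in any of these windows. No matched letters overlapped between motifs. A match describes the letters only.

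Tgfb1 encodes the TGF-beta isoform most studied in immune regulation. Its scaled counts were 3667, 2657 and 2450 in repeat-dose replicates A, B and C, 2296, 1365 and 2975 in late single-dose, 1566, 2036 and 1628 in early single-dose, and 1075, 1022 and 999 in saline replicates. Every treated tumor lay above every saline tumor, the 3 saline tumors lay close together, and the treated groups overlapped from one to the next. For this gene and those below, on any measure, how many of all genes separated from saline likewise was not counted. Group means were 2925 ± 651 in repeat-dose, 2212 ± 808 in late single-dose, 1743 ± 255 in early single-dose and 1032 ± 39 in saline tumors (SD, n = 3 each). Tgfb1 rose with the repeat dose by 1.50 ± 0.29 on the log2 scale against saline (SE, edgeR adjusted p = 0.00183), which is 2.83-fold with a 95% interval of 1.80 to 4.45. It rose by 1.10 ± 0.29 in late single-dose tumors (edgeR adjusted p = 0.0174), and the early single dose, at 0.76 ± 0.29, did not pass (edgeR adjusted p = 0.0700). The late single-dose call was lost without saline replicate B, saline replicate C or late single-dose replicate C, with edgeR adjusted p from 0.0625 to 0.0679. In a bulk sample, fewer cells of a type and less RNA per cell cannot be told apart, here and for all other genes.

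The rise of Tgfb1 was close to that of the median gene. Relative to it the change was 0.31 on the log2 scale with the repeat dose, 0.32 in late single-dose and 0.20 in early single-dose tumors. Under TMM scaling the repeat-dose change was 0.27 with an edgeR adjusted p of 0.338, and under scaling by the total count it turned to -0.16 (edgeR adjusted p = 0.481). Measured instead as a log2 level above the median gene of its own tumor, Tgfb1 stood at 3.08 ± 0.03 in repeat-dose, 3.15 ± 0.10 in late single-dose, 2.90 ± 0.14 in early single-dose and 3.35 ± 0.41 in saline tumors (SD, n = 3 each). The treated groups' means were therefore slightly below saline on this measure, and their ranges overlapped with it.

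Tgfb2 encodes the isoform known for its part in the development of heart, eye and neural crest. Scaled counts were 94.8, 111 and 108 in repeat-dose replicates, 110, 94.8 and 153 in late single-dose, 105, 131.4 and 131.7 in early single-dose and 118, 131 and 138 in saline replicates. The repeat-dose tumors all lay just below the saline tumors, and both single-dose groups overlapped with saline. Group means ran from 104 ± 8.5 in repeat-dose to 119 ± 30.3 in late single-dose, 123 ± 15.2 in early single-dose and 129 ± 10.3 in saline tumors (SD, n = 3 each). The repeat-dose change of -0.30 ± 0.23 on the log2 scale did not pass (SE, edgeR adjusted p = 0.275), and its 95% interval of 0.573- to 1.15-fold leaves out a rise like that of Tgfb1. Relative to the median gene the change was -1.49, and under TMM scaling Tgfb2 fell by 1.51 (edgeR adjusted p = 0.000899). On the log2 level relative to the median gene of each tumor, the values were -1.70 ± 0.40, -1.01 ± 0.20 and -0.91 ± 0.27 in repeat-dose, late and early single-dose tumors against 0.36 ± 0.58 in saline (SD, n = 3 each), and no treated tumor reached the lowest saline tumor.

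Il10, the interleukin-10 gene, was counted close to background. Raw counts were 46, 39 and 8 in repeat-dose replicates, 36, 16 and 25 in late single-dose, 29, 41 and 35 in early single-dose and 32, 20 and 37 in saline replicates. They exceeded the background limit of their tumor (mean plus 2 SD of its negative probes, 16.6 to 29.2 counts) in 8 of 12 tumors, that is in 2 of 3 repeat-dose, 1 of 3 late single-dose, 3 of 3 early single-dose and 2 of 3 saline tumors. Scaled counts were 67.1, 51.5 and 23.3 in repeat-dose, 33.9, 15.97 and 31.7 in late single-dose, 35.9, 33.3 and 27.0 in early single-dose and 21.4, 11.4 and 18.8 in saline replicates. On this scale the repeat-dose and early single-dose tumors all lay above saline, and late single-dose tumors overlapped with it. Repeat-dose replicate C lay above saline with 8 raw counts, below its negative-probe mean of 13 and below every saline raw count. Its housekeeping mean was 530, against 2309 to 3034 in saline tumors, and a low mean raises scaled background counts too. The repeat-dose change was 1.49 ± 0.43 on the log2 scale (SE, edgeR adjusted p = 0.0123). That call was lost when the negative-probe mean was subtracted first (1.39, edgeR adjusted p = 0.337), without repeat-dose replicate A (edgeR adjusted p = 0.0647), without saline replicate B (0.0505) and under TMM scaling (0.29, edgeR adjusted p = 0.502). The single-dose changes of 0.66 ± 0.43 (late, edgeR adjusted p = 0.258) and 0.89 ± 0.43 (early, edgeR adjusted p = 0.138) did not pass.

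**Figure D1:**
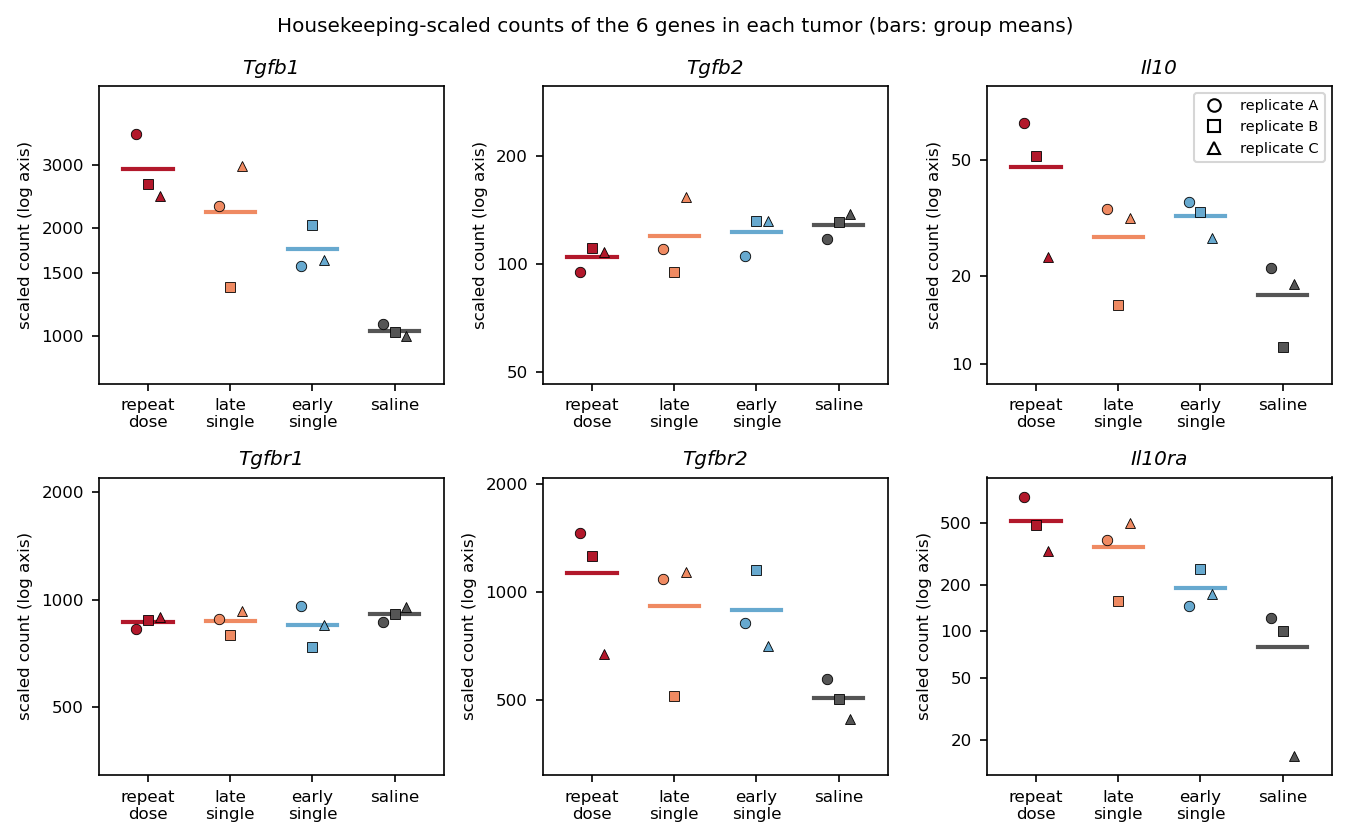
Scaled counts (log axis, counts divided by the relative housekeeping mean) of the ligands in the upper row and the receptor chains in the lower row, 1 point per tumor, with replicate letters as symbols and bars for group means (n = 3). Tgfb1 and Il10ra lie above saline in all 9 treated tumors, whereas Tgfb2 and Tgfbr1 stay within a narrow band. How many of all genes lie above saline in this way was not counted. On this scale the median gene is higher than in saline too, by 0.56 to 1.19 on the log2 scale. Relative to it Tgfb1 overlaps with saline in every treated group and Il10ra in both single-dose groups, while Tgfb2 and Tgfbr1 lie below saline in all.

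Tgfbr1, the kinase that passes the TGF-beta signal to the Smads, was the steadiest of the 6. Its scaled counts were 830, 879 and 893 in repeat-dose, 880, 798 and 929 in late single-dose, 960, 739 and 850 in early single-dose and 866, 912 and 955 in saline replicates. The groups overlapped throughout, and the highest tumor was 1.30-fold above the lowest. The SD of its log2 scaled count over the 12 tumors was 0.109, below all but 11 of the 729 tested genes and below 16 of the 20 housekeeping probes, whose median was 0.144. Against saline the repeat-dose change was -0.07 ± 0.16 on the log2 scale (SE, edgeR adjusted p = 0.743), with a 95% interval of 0.741- to 1.22-fold. Relative to the median gene that is -1.26, and under TMM scaling Tgfbr1 fell by 1.28 (edgeR adjusted p = 0.00193), so the gene moved with the housekeeping probes and not with the bulk of the panel.

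Tgfbr2, the chain that binds the ligand first, differed more between tumors of 1 group. It had 1464, 1261 and 672 scaled counts in repeat-dose, 1088, 514 and 1140 in late single-dose, 819, 1156 and 711 in early single-dose and 573, 505 and 442 in saline replicates. Repeat-dose and early single-dose tumors all lay above saline, and 1 late single-dose tumor, replicate B, lay within the saline range. Means were 1132 ± 411 in repeat-dose, 914 ± 348 in late single-dose, 895 ± 232 in early single-dose and 507 ± 65.5 in saline tumors (SD, n = 3 each). The repeat-dose rise was 1.16 ± 0.36 on the log2 scale (SE, edgeR adjusted p = 0.0169), and it was lost without repeat-dose replicate A, saline replicate B or saline replicate C, with edgeR adjusted p from 0.0505 to 0.0683. The changes in late single-dose (0.85 ± 0.36, edgeR adjusted p = 0.0852) and early single-dose tumors (0.82 ± 0.36, edgeR adjusted p = 0.107) did not pass. The repeat-dose rise equalled that of the median gene, with a relative change of -0.03 and a TMM-scaled change of -0.06 (edgeR adjusted p = 0.879).

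Il10ra, the chain that binds interleukin-10 and is made mainly by leukocytes, had the widest range. Its scaled counts were 735, 480 and 329 in repeat-dose, 386, 157 and 501 in late single-dose, 146, 252 and 175 in early single-dose and 122, 100.03 and 15.8 in saline replicates. All treated tumors lay above all saline tumors, and how many of all genes did so was not counted. Saline replicate C, with 31 raw counts, lay far below the other saline tumors. Means were 515 ± 205 in repeat-dose, 348 ± 175 in late single-dose, 191 ± 54.9 in early single-dose and 79.3 ± 56.2 in saline tumors (SD, n = 3 each). Against saline Il10ra rose with the repeat dose by 2.70 ± 0.68 on the log2 scale (SE, edgeR adjusted p = 0.00581), which is 6.52-fold with a 95% interval of 2.29 to 18.5. It also rose in late single-dose tumors (2.13 ± 0.67, edgeR adjusted p = 0.0282), a call that was lost when saline replicate B or C or late single-dose replicate A or C was left out (edgeR adjusted p from 0.0601 to 0.110). The early single-dose change of 1.27 ± 0.65 did not pass (edgeR adjusted p = 0.166).

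Il10ra was higher than the median gene as well. The change relative to the median was 1.51 on the log2 scale with the repeat dose, 1.35 in late single-dose and 0.71 in early single-dose tumors. Under TMM scaling the repeat-dose rise was 1.49 (edgeR adjusted p = 0.0332), while under total-count scaling it was 1.09 and did not pass (edgeR adjusted p = 0.0688). The log2 level relative to the median gene of each tumor was 0.52 ± 0.33 in repeat-dose, 0.40 ± 0.40 in late single-dose and -0.31 ± 0.32 in early single-dose tumors, against -0.77 ± 1.23 in saline (SD, n = 3 each). On that measure the repeat-dose tumors all lay above saline and the other groups overlapped with it.

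**Figure D2:**
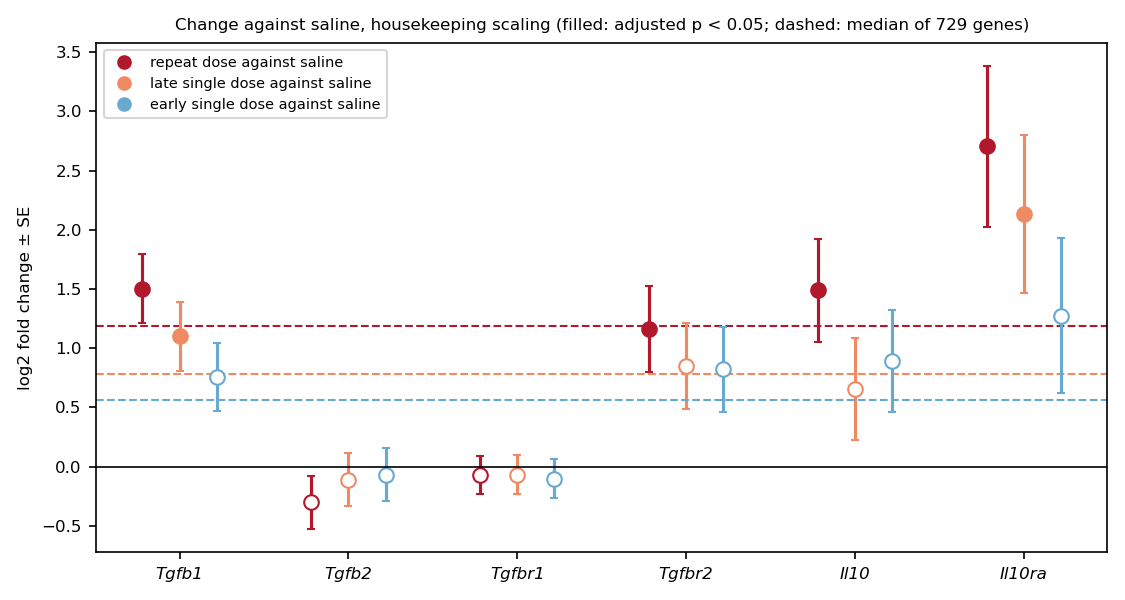
Log2 fold changes against saline (vertical axis, bars for the SE of edgeR's fit) of the 6 genes with the repeat, late single and early single dose, filled where the adjusted p is under 0.05, with dashed lines for the median of the 729 tested genes. Tgfb2 and Tgfbr1 lie near 0 and below the dashed lines, Tgfb1, Tgfbr2 and Il10 lie near them, and Il10ra lies above.

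Counted together, 4 of the 6 genes passed in repeat-dose tumors against saline, all higher, where 61.3% of all tested genes passed. In late single-dose tumors 2 of 6 passed, against 39.2% of all genes, and in early single-dose tumors 0 of 6 passed, against 31.1%. The early comparison had 2 of the 6 at an unadjusted p under 0.05 in edgeR, and by DESeq2 with housekeeping size factors Tgfb1 alone passed (adjusted p = 0.0399). In the joint test of all 4 groups, Tgfb1 (edgeR adjusted p = 0.0118) and Il10ra (0.0302) passed, where 48.8% of all genes did. In repeat-dose and late single-dose tumors these shares were near those of the panel. The panel's counts rested in part on single tumors. The late single-dose comparison called 286 of 729 genes, and 86 without saline replicate B, 108 without saline replicate C and 107 without late single-dose replicate C. The early single-dose comparison called 227, and leaving out replicate B of that group lowered this to 121, while dropping saline replicate B gave 89 and dropping saline replicate C gave 107. The 3 comparisons share the same saline tumors. With TMM scaling the repeat-dose calls were 3 of 6, namely Il10ra higher and Tgfb2 and Tgfbr1 lower, where 55.3% of all genes passed. In late single-dose tumors they were 2 of 6, Tgfb2 and Tgfbr1, both lower, where 27.4% of all genes passed, and in early single-dose tumors 1 of 6, Tgfbr1, lower, where 27% did.

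A second dose was set against a single dose in tumors of the same age, repeat dose against late single dose. None of the 6 genes passed, nor did any of the 729 (0%), with 77 genes but none of the 6 at an unadjusted p under 0.05 in edgeR. DESeq2 with housekeeping size factors called 3 genes and none of the 6. Without late single-dose replicate C, 100 of the 729 genes passed in edgeR, 96 higher and 4 lower, and again none of the 6. The largest change was that of Il10, 0.83 ± 0.43 on the log2 scale (SE, edgeR adjusted p = 0.425), with a 95% interval of 0.915- to 3.46-fold. For Tgfb1 it was 0.40 ± 0.29 (edgeR adjusted p = 0.490, interval 0.849- to 2.06-fold) and for Tgfbr1 -0.00 ± 0.16 (edgeR adjusted p = 0.995, interval 0.777- to 1.28-fold). The intervals of Il10, Tgfb1 and Il10ra (0.556- to 3.97-fold) therefore include a 2-fold rise, and that of Tgfbr1 does not.

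Late against early single-dose tumors differ in the time since 1 dose and in tumor age. None of the 6 genes passed, and 0% of the 729 did, with 57 genes at an unadjusted p under 0.05 in edgeR and 24 called by DESeq2 with housekeeping size factors, none of them among the 6. Il10ra had the largest difference, 0.86 ± 0.64 on the log2 scale (SE, edgeR adjusted p = 0.822). The effect of the second dose (repeat against late single) minus that of the first (early single against saline) also passed in 0% of genes, with 79 at an unadjusted p under 0.05 in edgeR and 15 called by DESeq2 with housekeeping size factors, again none of the 6. For all 6 genes the interval of that difference was wide, for example 0.153- to 2.47-fold for Il10ra and 0.419- to 1.46-fold for Tgfb1.

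Ratios of raw counts within a tumor do not depend on any scaling and are given with no test. The Tgfb1 to Tgfb2 ratio was 38.7, 24.0 and 22.8 in repeat-dose, 20.8, 14.4 and 19.4 in late single-dose, 14.9, 15.5 and 12.4 in early single-dose and 9.15, 7.81 and 7.25 in saline replicates. The repeat-dose tumors all lay above the late single-dose tumors, these overlapped with the early single-dose tumors, and all treated tumors lay above saline. Geometric means were 27.6, 18.0, 14.2 and 8.03 in repeat-dose, late single-dose, early single-dose and saline tumors. The 2 ligands therefore changed unequally in treated tumors whichever scaling is used, and the ratio does not say which of them changed.

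For the receptor chains, the Tgfbr1 to Tgfbr2 ratio was 0.567, 0.697 and 1.33 in repeat-dose, 0.809, 1.55 and 0.814 in late single-dose, 1.17, 0.639 and 1.20 in early single-dose and 1.51, 1.81 and 2.16 in saline replicates. Repeat-dose and early single-dose tumors lay below saline, and late single-dose replicate B lay within the saline range. The Il10ra to Il10 ratio was 9.33 to 14.1 in repeat-dose, 9.81 to 15.8 in late single-dose, 4.07 to 7.59 in early single-dose and 0.838 to 8.75 in saline tumors. The day-8 groups lay above both day-2 groups, and Il10 counts near background make single values of this ratio imprecise. The Tgfb1 to Il10 ratio was 51.6 to 105.3, 67.8 to 93.9, 43.7 to 61.2 and 50.3 to 89.4 in repeat-dose, late single-dose, early single-dose and saline tumors, with all treated groups overlapping saline.

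**Figure D3:**
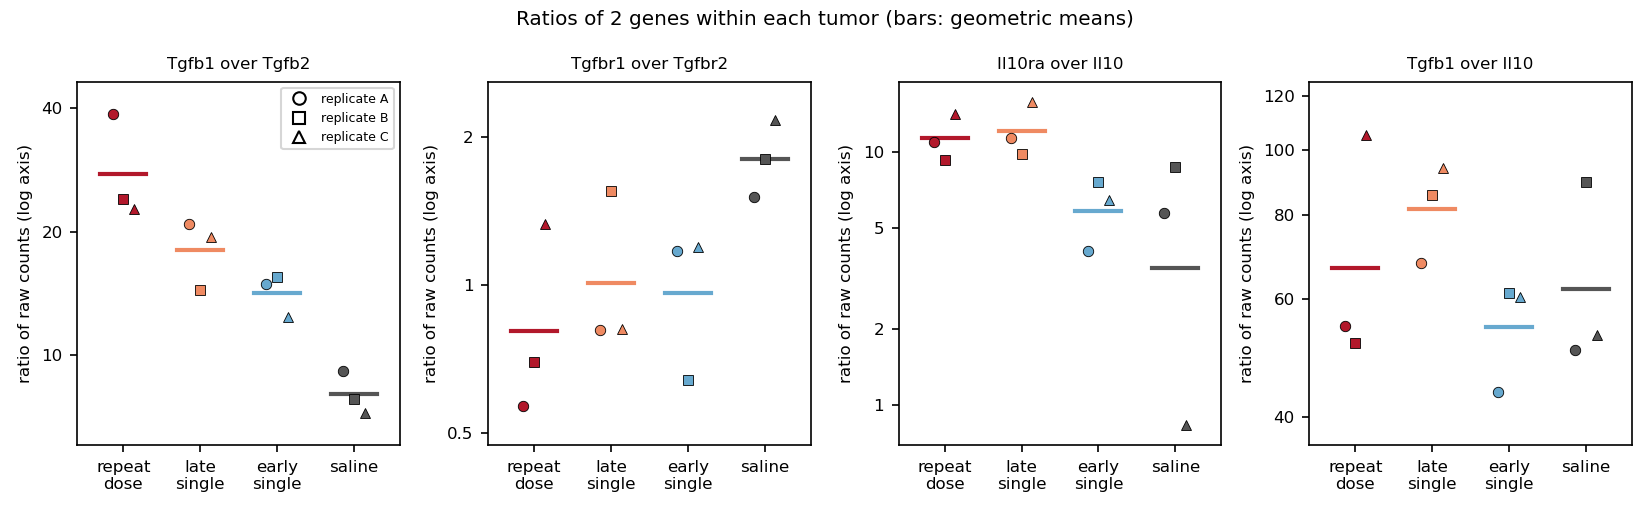
Ratios of raw counts of 2 genes within each tumor (log axes), 1 point per tumor, with bars for geometric means (n = 3). The Tgfb1 to Tgfb2 ratio is 38.7 in the highest repeat-dose tumor and 7.25 in the lowest saline tumor, with saline apart from all treated groups, while the Tgfb1 to Il10 ratio overlaps with saline in every group.

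Which genes passed as higher or lower thus depended on the scaling. Scaled by the positive controls alone, which are spiked in and do not track the amount of tumor RNA, Tgfb2 and Tgfbr1 were lower at -1.79 (edgeR adjusted p = 0.00957) and -1.56 (0.0148), and the other 4 genes did not pass.

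**Figure D4:**
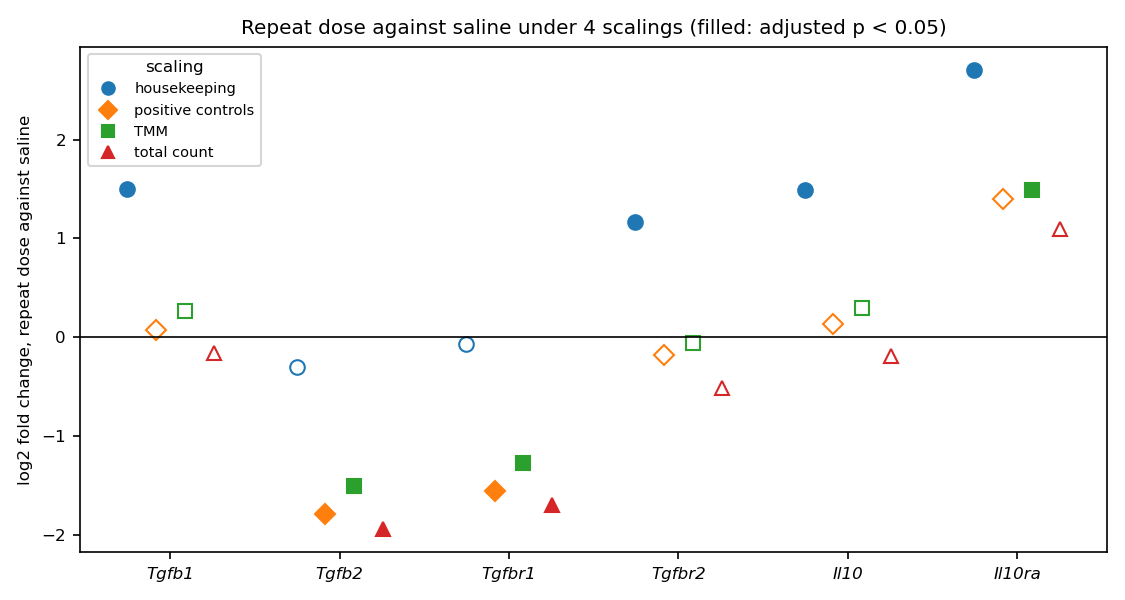
Log2 fold changes of repeat-dose against saline tumors (vertical axis) under 4 scalings, filled where the edgeR adjusted p is under 0.05. Tgfb1, Tgfbr2 and Il10 pass with the housekeeping scaling and lie between -0.51 and 0.29 with the others, and Tgfb2 and Tgfbr1 lie near 0 with the housekeeping scaling and between -1.95 and -1.28 with the others.

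Other genes of the pathways were read from lists chosen with earlier results of these data known. Of 3 measured genes that release or present latent TGF-beta, 2 rose with the repeat dose, Thbs1, whose product thrombospondin activates latent TGF-beta, by 2.26 ± 0.47 on the log2 scale (SE, edgeR adjusted p = 0.00244), and Nrp1, a co-receptor, by 1.05 ± 0.35 (0.0237). Mmp9, a protease that can release the ligand, had 0.96 ± 0.54 (edgeR adjusted p = 0.150). These 2 of 3 stand beside the 61.3% of all genes that passed, a share near theirs. Thbs1 was the 1 of 3 that rose in each single-dose group, by 1.67 ± 0.47 in late (edgeR adjusted p = 0.0195) and 1.44 ± 0.46 in early single-dose tumors (0.0389). Under TMM scaling only Thbs1 of the 3 passed, and under total-count scaling only Nrp1 did, as lower.

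Of 8 other ligand, co-receptor, Smad and partner genes, 5 rose with the repeat dose, 1 in late and 0 in early single-dose tumors, beside 61.3%, 39.2% and 31.1% of all genes. The 5 were Runx3 (1.72 ± 0.43 on the log2 scale, SE, edgeR adjusted p = 0.00577) and Runx1 (0.89 ± 0.24, 0.00816), transcription factors that act with Smads, the Smad genes Smad3 (0.86 ± 0.24, 0.00912) and Smad2 (0.53 ± 0.19, 0.0274), and Eng, a co-receptor of vessel cells (0.64 ± 0.19, 0.0139). The list's median change of 0.59 lay under the 1.19 of all genes, and under TMM scaling 0 of 8 were higher and 4 lower, among them Smad2, and under total-count scaling 7 of 8 were lower. Of 6 genes that TGF-beta induces, none passed in any of the 3 comparisons with saline in edgeR, with a repeat-dose median of 0.45. Fn1, the fibronectin gene, had 0.82 ± 0.52 (SE, edgeR adjusted p = 0.197) and Itgae, an integrin chain of tissue-resident T cells, had 0.57 ± 0.40 (0.242). Col4a1, a basement membrane collagen, had -0.31 ± 0.24 (edgeR adjusted p = 0.283), and under TMM scaling Col4a1 and Snai1, a repressor of epithelial genes, were lower past the threshold. Under total-count scaling 4 of the 6 were lower, Col1a1, Col4a1, Itgae and Snai1.

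All 6 measured genes that act in interleukin-10 signaling or are induced by it rose with the repeat dose. In late single-dose tumors 4 rose and in early single-dose tumors 3, beside 61.3%, 39.2% and 31.1% of all genes in the 3 comparisons. The 6 had a repeat-dose median of 2.12 on the log2 scale beside 1.19 for all genes. Socs3, a feedback inhibitor that Stat3 induces, had 212 ± 78.3 scaled counts in repeat-dose, 114 ± 44.1 in late single-dose, 131 ± 26.9 in early single-dose and 34.8 ± 5.46 in saline tumors (SD, n = 3 each), a repeat-dose rise of 2.61 ± 0.36 (SE, edgeR adjusted p = 0.000770). Stat3 rose by 1.63 ± 0.25 with the repeat dose (edgeR adjusted p = 0.000770), Il1rn, the interleukin-1 receptor antagonist, by 3.51 ± 0.60 (0.00107) and Il4ra, a receptor chain for interleukin-4, by 3.07 ± 0.65 (0.00244). The kinase genes Jak1, at 1.05 ± 0.25 (edgeR adjusted p = 0.00421), and Tyk2, at 1.01 ± 0.24 (0.00432), rose by less than the median gene. Several other cytokines induce or use these genes too, interleukin-2 and interferons included. Under TMM scaling Il1rn, Il4ra and Socs3 passed, and under total-count scaling these 3 were higher and Jak1 and Tyk2 lower.

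Of 6 tested genes known to induce or accompany Il10 expression, 5 rose with the repeat dose, 2 in late and 1 in early single-dose tumors, beside the same shares of all genes as above. Prdm1, the gene of the factor Blimp-1, had 188 ± 49.5 scaled counts in repeat-dose, 116 ± 45.2 in late single-dose, 104 ± 13.7 in early single-dose and 48.5 ± 14.1 in saline tumors (SD, n = 3 each), and rose by 1.95 ± 0.34 on the log2 scale with the repeat dose (SE, edgeR adjusted p = 0.00109). Ebi3, a subunit of interleukin-27, rose by 1.71 ± 0.40 (edgeR adjusted p = 0.00400), Batf, a factor of activated T cells, by 1.25 ± 0.28 (0.00330) and Maf by 1.12 ± 0.35 (0.0167). Il27, the gene of the other subunit, was measured but did not reach the tested genes. The cytokine gene Il21 had 0.87 ± 0.59 and did not pass (edgeR adjusted p = 0.234). Under TMM scaling Prdm1 alone passed, and under total-count scaling Maf alone did, as lower. Of 5 measured relatives of interleukin-10 and its receptors, 3 were tested, and Il22ra2, a decoy receptor for interleukin-22, rose with the repeat dose by 1.79 ± 0.46 (edgeR adjusted p = 0.00626), a call that TMM scaling ended. Its scaled counts were low, 54.3 ± 25.7 in repeat-dose and 15.3 ± 2.27 in saline tumors, beside 47.3 ± 22.2 and 17.2 ± 5.16 for Il10 (SD, n = 3 each). The caution given for Il10, that a low housekeeping mean raises scaled background counts, therefore holds for Il22ra2 too.

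**Figure D5:**
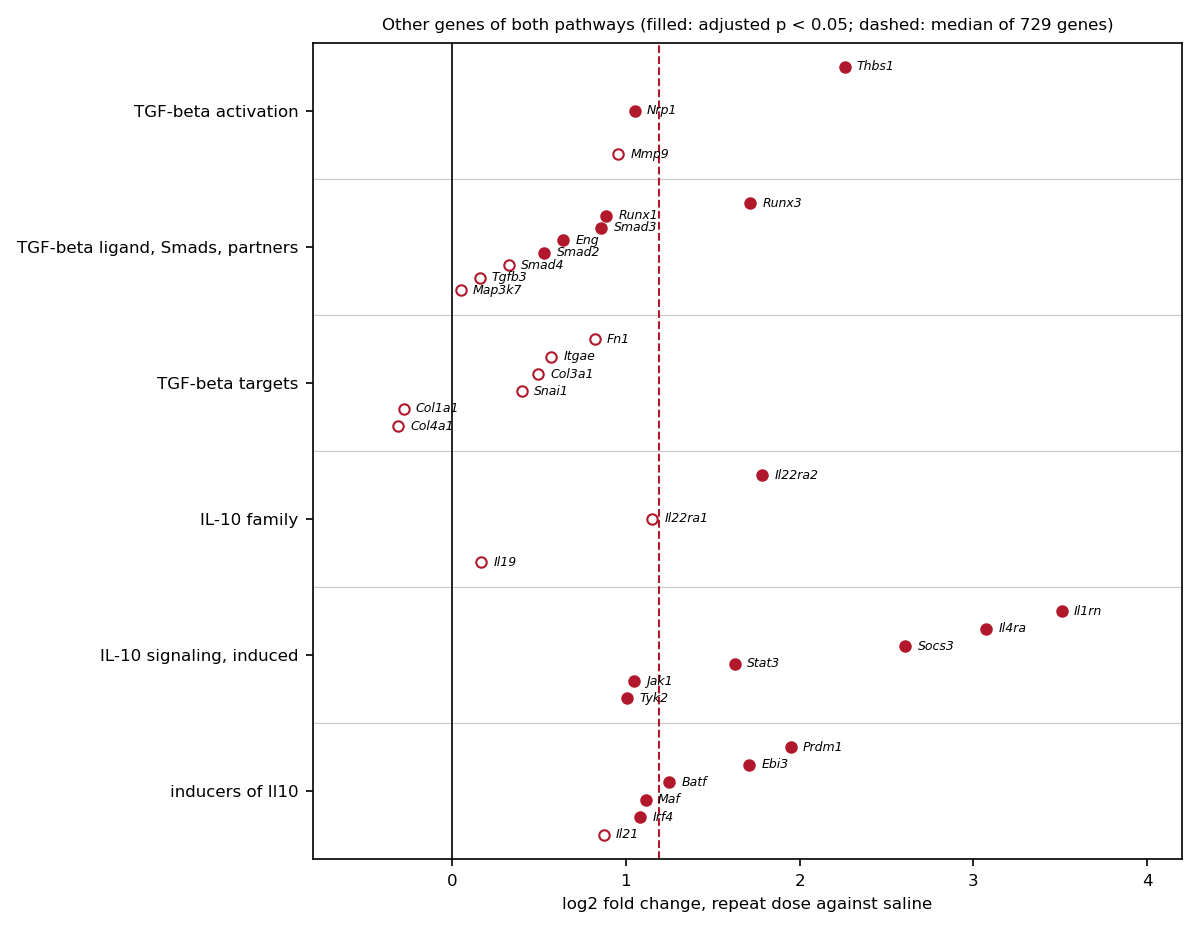
Log2 fold changes of repeat-dose against saline tumors (horizontal axis) for the other genes of both pathways, grouped by list, filled where the edgeR adjusted p is under 0.05, with the dashed line at the median of 729 genes. Of the genes that act in interleukin-10 signaling or are induced by it, Il1rn, Il4ra and Socs3 lie well to the right of that line. Jak1 and Tyk2 lie to its left, as do the genes that TGF-beta induces.

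Markers of leukocytes were higher in treated tumors too. The summed scaled counts of 4 genes listed as leukocyte markers (Ptprc, Itgb2, Cybb and Lcp1) were 17520, 11141 and 8299 in repeat-dose, 8287, 4163 and 11997 in late single-dose, 4415, 6502 and 4667 in early single-dose and 2518, 1665 and 843 in saline replicates. All treated tumors lay above saline, and how many of all genes lay so was not counted. All 4 passed in repeat-dose tumors, under TMM scaling too, where 61.3% and 55.3% of all genes passed. Within each of the 4 groups the 3 tumors stood in the same order for the leukocyte sum as for Tgfb1 and for Il10ra, while the order matched in 3 of 4 groups for Tgfbr2 and in 1 of 4 for Tgfb2, Tgfbr1 and Il10. This was looked at after the values were seen. The sums and the genes were divided by the same housekeeping mean of each tumor, and a shared divisor by itself draws such orders together. Over the 12 tumors Tgfb1 and Il10ra had r = 0.886 on the housekeeping scale and -0.398 relative to the median gene.

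The 8 macrophage markers summed to between 8928 and 27016 in repeat-dose, 4789 and 13004 in late single-dose, 4475 and 9335 in early single-dose and 923 and 3592 in saline tumors. All 8 rose with the repeat dose, and 7 of them under TMM scaling too, beside the same 61.3% and 55.3% of all genes. Cd68, a lysosomal protein of macrophages, averaged 5738 ± 2615 in repeat-dose and 938 ± 507 in saline tumors (SD, n = 3 each). The 5 markers of regulatory T cells summed to between 1354 and 2652 in repeat-dose, 400.2 and 1007 in late single-dose, 1355 and 2088 in early single-dose and 301 and 555 in saline tumors. Foxp3, which defines these cells, was above the background limit in 4 of 12 tumors, and the other 4 markers were in 12 of 12. With the repeat dose 3 of the 5 rose, Il2ra by 4.30 ± 0.72 on the log2 scale (SE, edgeR adjusted p = 0.000948), Tnfrsf18 by 1.75 ± 0.42 (0.00448) and Ikzf2 by 1.40 ± 0.29 (0.00212). Ctla4, at 1.02 ± 0.47 (edgeR adjusted p = 0.0837), and Foxp3, at 0.16 ± 0.72 (0.872), did not pass. In late single-dose tumors 1 of the 5 rose, and in early single-dose tumors 2 did. Of all genes, 61.3%, 39.2% and 31.1% passed in these 3 comparisons. Activated T cells and natural killer cells make Il2ra too, and under TMM scaling Il2ra alone of the 5 passed. Of melanocyte markers the panel held S100b and Mcam, whose sum overlapped between all groups (2494 to 2691 in repeat-dose and 2283 to 3140 in saline tumors), with S100b higher (1.26 ± 0.36 on the log2 scale, SE, edgeR adjusted p = 0.0105) and Mcam lower (-1.06 ± 0.33, 0.0168) in repeat-dose tumors. Under TMM scaling Mcam was lower and S100b did not pass. Of the other marker lists, 4 of 6 for T cells, 3 of 4 for natural killer cells, 1 of 7 for B cells and 2 of 3 for neutrophils rose with the repeat dose. For fibroblasts 1 of 5 rose, Thy1, and for vessel cells 0 of 6 rose and 2 fell, again beside 61.3% of all genes. Under TMM scaling 4 were higher and 1 lower for T cells, 2 higher and 1 lower for natural killer cells, and 2 higher for neutrophils. For B cells and for fibroblasts 0 were higher and 1 lower, and for vessel cells 0 were higher and 4 lower, beside 55.3% of all genes. The part of leukocyte content in the changes of Tgfb1, Tgfbr2, Il10 and Il10ra was not tested.

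The genes whose pattern was most like that of each of the 6 were found over the 12 tumors from log2 scaled counts minus the median of each tumor, a step that all genes share, and are given as a description. Il10ra was most like Cd48 (Pearson r = 0.980), Ncf4 (0.971) and Cd84 (0.955), genes of leukocyte surface receptors and of the phagocyte oxidase. Tgfbr1 was most like Tollip, Reps1 and Atf2 (r = 0.995 each), and Tgfb2 was most like St6gal1 (0.987), Cd276 (0.983) and Map2k2 (0.983). Subtracting the median gives genes that are steady on the housekeeping scale a shared pattern, so such r values partly reflect that step. Between Tgfbr1 and Tgfb2, r was 0.967 after the subtraction and 0.242 before it. Tgfbr2 was most like Cd99 (0.911) and the vessel genes Tek (0.895) and Cd34 (0.894). Tgfb1 had weaker likenesses, to Relb (0.860), S100b (0.853) and Nfkb2 (0.842), 2 of them genes of NF-kappa-B subunits. Il10 was most like Timd4 (0.887), Tgfbr2 (0.745) and Tlr4 (0.720), with Il10 itself near background in many tumors.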

How the data were processed

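The deposited files of single tumors hold raw counts per probe, per the file headers, for 750 genes, 20 housekeeping, 6 positive and 8 negative probes. The authors' series table holds signal normalized with nSolver (version not stated there), per the labels; each value was the raw count times 1 factor per tumor to within 0.00879% (counts of 100 or more). The 12 tumors formed 4 groups of 3 by their labels, each tumor from its own mouse; any 2 replicates differed beyond counting noise (chi-square per degree of freedom 24.5 or more). Total counts were 392596 to 1232726 per tumor, and intervals rest on the spread between tumors.

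Background was set per tumor at 2 SD above the mean negative probe, and the 729 genes exceeding it in at least 3 tumors were tested. Raw counts of all 12 tumors entered 1 fit in edgeR 4.0.16 (glmQLFit, robust, and glmQLFTest; R 4.3.3) with library sizes from the housekeeping geometric mean. There were 7 comparisons. Adjusted p is by Benjamini-Hochberg over 729 genes, threshold 0.05, two-sided; ± is SD for counts and SE for log2 fold changes. Levels relative to the median gene used log2(scaled count + 1). The script was tested on simulated counts.

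The genes and lists were chosen with earlier results of these data known. The rule for naming allowed the 6 genes, of each pathway list up to 4 genes with the smallest joint adjusted p, of each marker list up to 2 with the highest mean, and for each of the 6 the 3 genes with the highest Pearson r. Not all genes that it allowed are named, and for some marker lists only counts are given. Other list members that are named were picked after their values were seen. Alternatives were TMM, total-count and positive-control scaling, DESeq2 1.42.0 (size factors of its own or from the housekeeping probes), limma 3.58.1 on the authors' values, no filter, negative-mean subtraction, a replicate block, only the groups compared, each tumor left out, and other pseudocounts.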

Additional observations from a re-analysis of the deposited data

How the results depend on the processing

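The number of the 6 genes past the threshold in repeat-dose against saline tumors was 4, 3 under TMM scaling and DESeq2's own size factors (Il10ra higher, Tgfb2 and Tgfbr1 lower) and 2 under total-count and positive-control scaling (Tgfb2 and Tgfbr1 lower), and with a tumor left out it was 2 to 4. In late single-dose tumors it was 2, and 0 under positive-control scaling, 0 in a fit of only the groups compared (where 0 of 729 genes passed, against 286) and 0 to 3 with a tumor left out; under TMM and total-count scaling the 2 were Tgfb2 and Tgfbr1, both lower. In early single-dose tumors it was 0, and 1 under TMM scaling and DESeq2 with housekeeping size factors, 2 under total-count scaling, DESeq2's own size factors and a fit of only the groups compared, and 0 to 1 with a tumor left out. In the joint test it was 2, and 1 under positive-control scaling, negative-mean subtraction and the replicate block (Tgfb1), and 0 to 4 with a tumor left out. All 3 other comparisons had 0 under every alternative run. The cause of these changes was not tested.

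Replicate letters did not pair tumors: same-letter deviations from the group means correlated between -0.650 and 0.596, and 2 of 12 tumors correlated best with their own letter. The replicate block ended 1 other call, Il10ra in the joint test (edgeR adjusted p = 0.0505), and turned the repeat against late single-dose change of Tgfbr1 to 0.00045.

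Of 912 values under alternatives, 766 kept direction and side of the threshold, 46 lost it, 36 gained it and 64 changed sign, none of them past the threshold under that alternative. Against saline, total-count scaling turned the repeat-dose log2 changes of Tgfb1 to -0.16, Il10 to -0.19 and Tgfbr2 to -0.51, the late single-dose changes of Il10 to -0.37 and Tgfbr2 to -0.20 and the early single-dose changes of Tgfb1 to -0.25, Il10 to -0.097 and Tgfbr2 to -0.19. Positive-control scaling turned Tgfbr2 to -0.18 (repeat) and Il10 to -0.13 (late), TMM scaling turned them to -0.058 and -0.12, and DESeq2's own size factors to -0.062 and -0.13. With a tumor left out, Tgfb2 ran from -0.13 to 0.031 (early) and from -0.33 to 0.031 (late).

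For repeat against late single dose, total-count scaling gave -0.0078 for Il10ra, -0.19 for Tgfb1 and -0.31 for Tgfbr2. Positive-control scaling gave -0.21 for Tgfb1 and -0.25 for Tgfbr2, TMM scaling -0.079 and DESeq2's own size factors -0.081 for Tgfbr2, and negative-mean subtraction 0.0010 for Tgfbr1. With a tumor left out, Tgfb2 ran from -0.33 to 0.026 and Tgfbr1 from -0.061 to 0.047. For late against early single dose, Tgfb1 had -0.092 under positive-control scaling, Tgfbr1 -0.072, -0.32 and -0.041 under TMM, positive-control and DESeq2 scaling, and Tgfbr2 -0.16, -0.011, -0.39, -0.11 and -0.026 under TMM, total-count, positive-control and DESeq2 scaling and limma on the authors' values. With a tumor left out, Il10 ran from -0.43 to 0.039, Tgfb2 from -0.26 to 0.098, Tgfbr1 from -0.058 to 0.13 and Tgfbr2 from -0.16 to 0.32. For the difference of the effects, Il10 had 0.15, 0.27, 0.21 and 0.31 under TMM, total-count and DESeq2 scaling and negative-mean subtraction, Tgfb2 0.14, 0.27 and 0.18 under TMM, total-count and DESeq2 scaling, Tgfb1 0.059 under total-count scaling and Tgfbr1 -0.11 under positive-control scaling. With a tumor left out, Il10 ran from -0.38 to 0.23 and Tgfb2 from -0.27 to 0.093.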

Other observations

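Set against Ptprc, the general leukocyte marker CD45, the raw count of Il10ra was nearly constant in repeat-dose tumors, with ratios of 0.411, 0.408 and 0.414 in replicates A, B and C. It was 0.460, 0.428 and 0.432 in late single-dose, 0.289, 0.274 and 0.256 in early single-dose and 0.402, 0.639 and 0.484 in saline replicates. The early single-dose tumors lay below all others, and the day-8 groups lay within the saline range, although Il10ra itself was higher there than in saline under housekeeping scaling. The ratio of Tgfb1 to Ptprc was 2.05, 2.25 and 3.08 in repeat-dose, 2.73, 3.73 and 2.57 in late single-dose, 3.10, 2.21 and 2.38 in early single-dose and 3.54, 6.53 and 30.7 in saline replicates. Saline replicate C stood far above the rest on this ratio, and it also had the lowest sum of leukocyte markers. Both ratios are independent of scaling, were chosen after the values were seen and are given with no test.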
